A study of Mus musculus with 36 samples.

Results

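miR-1224 is a microRNA cut from an intron of Vwa5b2, a gene that encodes a protein with a von Willebrand factor type A domain. It was followed here through the small-intestinal epithelium of C57BL6/2J mice, as mmu-mir-1224-5p, 1 of 2670 entries of a small RNA table, and as Vwa5b2, 1 of 27998 genes in single-cell matrices. Both were selected on their measured levels across these sorted populations and cell types, so those levels are given as a description with no test. The small RNA libraries came from cells separated by flow cytometry: Sox9 High, Sox9 Low, Sox9 Negative, CD24Low and goblet cells with 4 libraries each, Lgr5 High with 2, Paneth with 6 and tuft with 3. The single-cell data were 2 droplet libraries from wild type mice aged 12 months, with 1144 and 1470 cells named by the authors as 1 of 8 types. Labels of the Sox9 fractions carry the word chow for numbers 1, 2 and 4 and HFD for number 3. Labels of the same number share a code across the fractions, whose meaning is not given. No age, genotype, reporter allele or gate is given for the sorted cells, and no sorted population was labelled enteroendocrine.

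Enteroendocrine cells, called EEC by the authors, are the hormone-secreting cells of the gut lining and release peptides such as cholecystokinin, GIP and ghrelin from dense granules. In Sox9 reporter mice the cells with the most reporter have been described as enteroendocrine, and whether such a reporter was used for these sorts is not given. Most microRNAs are freed from their primary transcript by the nuclease Drosha with its partner Dgcr8. A mirtron is an exception, a short intron that splicing releases, the debranching enzyme Dbr1 opens and Dicer cuts. A mirtron is released from its host's transcript by splicing, and the small RNA and the host's mRNA are then processed apart.

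The hairpin and its arms are shown because their ends fall on splice sites. In the RefSeq annotation of GRCm38.p6, the Mir1224 hairpin lies on chromosome 16 at 20604452 to 20604536 on the plus strand and is 85 bases long. Vwa5b2 spans 20589428 to 20605378 on the same strand. The hairpin is exactly the last intron in 14 of the 15 RefSeq transcripts of Vwa5b2, and in a curated transcript with 23 exons it is intron 22 of 22, between an exon that ends at 20604451 and one that starts at 20604537. The remaining transcript ends before it. Sequences from RefSeq are written 5′ to 3′, with capitals for the mature arms in the hairpin and for the seed, bases 2 to 8, in each arm.
Mir1224 hairpin: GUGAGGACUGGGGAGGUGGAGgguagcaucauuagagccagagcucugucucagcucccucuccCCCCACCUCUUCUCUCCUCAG
miR-1224-5p: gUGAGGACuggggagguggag
miR-1224-3p: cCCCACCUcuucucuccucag

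The hairpin opens with the GU and closes with the AG of a spliced intron, and each arm reaches one of these ends. G makes up 13 of the 21 bases of the 5p arm, and C makes up 12 of the 21 bases of the 3p arm. Among the 22 introns of that transcript it ranked 5 from the shortest, where the shortest was 75 bases and the median 216. Only 16 of 1005 RefSeq hairpins (1.59%) coincide with a whole intron in this way. Neither arm shares its seed with another of the 1679 mature mouse microRNAs in the RefSeq table.

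**Figure D1:**
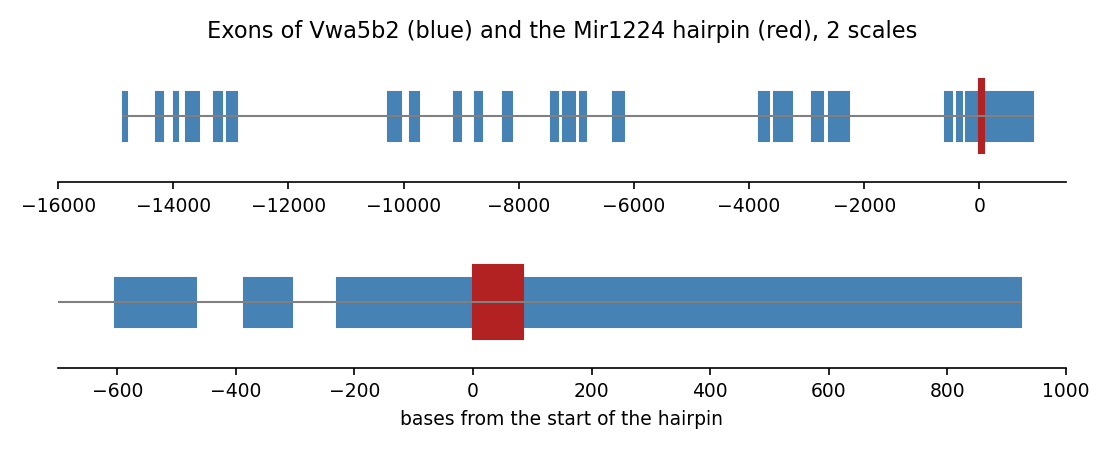
Exons of the Vwa5b2 transcript with 23 exons (blue boxes) and the 85-base Mir1224 hairpin (red) at 2 scales. The horizontal axis is the distance in bases from the start of the hairpin, and the red box fills the gap between the last 2 exons from end to end.

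miR-1224-5p was highest in the Sox9 High and Sox9 Low fractions. Values are the authors' normalised reads, and reads per library were worked back from them, from 475678 in a tuft library to 30958439 in a CD24Low library. Sox9 High libraries 1 to 4 held 395, 723, 2143 and 715. Sox9 Low libraries 1 to 4 held 502, 523, 5410.2 and 613. Every library of these 2 fractions lay above every other library with a column in the table, and the 2 fractions overlapped each other.

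The next populations stood lower. Goblet libraries held 237, 46.0, 118 and 337, on 50, 11, 38 and 53 reads. CD24Low libraries held 138.4, 57.3, 213 and 97.5, on 295 to 985 reads. Lgr5 High libraries held 34.7 and 159. These 3 ranges overlapped, so their means of 184.4 ± 128.5 (SD, n = 4), 126.5 ± 66.4 (SD, n = 4) and 96.9 ± 87.9 (SD, n = 2) do not differ beyond their spread. The lowest Sox9 High library, at 395, lay above the highest goblet library, at 337.

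In the remaining 13 libraries, all 4 Sox9 Negative, all 6 Paneth and all 3 tuft, miR-1224-5p was listed at 0. The table lists nothing under 10 reads, so 0 allows up to 9 reads. Those 9 reads would be worth 9.01 to 21.0 in Sox9 Negative, 6.33 to 8.45 in Paneth and 38.3 to 62.0 in tuft libraries. Paneth and Sox9 Negative cells therefore held less than the lowest Lgr5 High library, at 34.7, while tuft libraries were too shallow to be told apart from the lowest goblet and Lgr5 High values. In sorted cells, fewer cells of a type and less RNA per cell cannot be told apart.

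**Figure D2:**
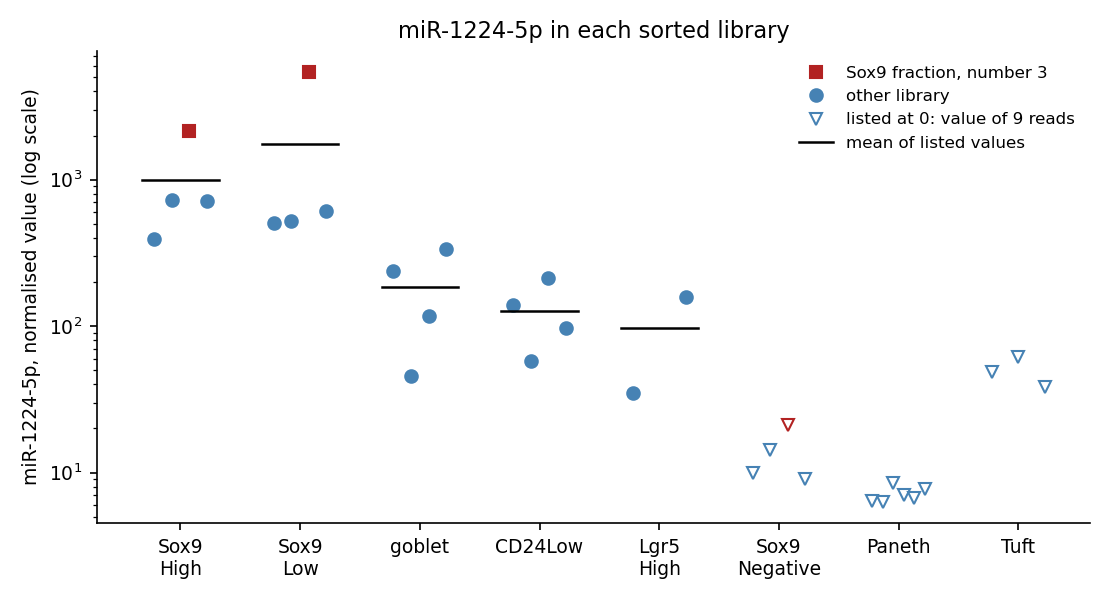
Normalised value of miR-1224-5p on a log axis for each of 31 libraries by sorted population. Filled points are listed values, red marks the Sox9 libraries of number 3, open triangles the value of 9 reads in libraries listed at 0, and bars the mean. Sox9 High and Sox9 Low points lie above all others.

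Sox9 High averaged 994 ± 781 and Sox9 Low 1762 ± 2433 (SD, n = 4 each), an order of means that rested on number 3. Without number 3, Sox9 High averaged 611 ± 187 (SD, n = 3) and Sox9 Low 546 ± 58.8 (SD, n = 3). On the log2 scale Sox9 High minus Sox9 Low was −0.25 (SE 0.70) with all libraries and 0.11 without number 3. Number 3 was the highest library in both fractions, at 3.00 times the median of the other numbers in Sox9 High and 10.3 times in Sox9 Low. As a share of each library, number 3 held 638 reads in each 1000000 in Sox9 High, against 139 to 255 in the others, and 1479.6 in Sox9 Low, against 168 to 208. Number 3 also had the fewest reads of each fraction, 2945821 in Sox9 High and 1744418 in Sox9 Low. It was the highest of the 4 libraries for 44.01% of 877 entries in Sox9 High and for 37.3% of 823 entries in Sox9 Low, against 14.9% of 664 in Sox9 Negative. With 1 library of that label in each fraction, what the label stands for, the source of the cells and the library cannot be told apart. Lane cannot be told apart from fraction for the other numbers, since all 4 Sox9 Low labels carry 1 lane tag, which only number 3 of Sox9 High shares.

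The 3p arm was far scarcer and was listed in 5 libraries. Sox9 High libraries 1 to 4 held 15.7, 14.9, 22.8 and 9.23, on 25, 32, 20 and 30 reads. Sox9 Low listed it in number 3 alone, at 44.02 on 21 reads. In the other Sox9 Low libraries 9 reads would be worth 5.46 to 11.4. The 5p arm exceeded the 3p arm 25.1, 48.6, 94.0 and 77.5 times in Sox9 High libraries 1 to 4 and 123 times in Sox9 Low library 3. Another 13 libraries listed the 5p arm and not the 3p arm. Of the 6 table entries for miR-1224, 4 carry an offset from the annotated arm in their name. Of these only the 3p arm with an offset of +1 was above 0, at 5.58 in Sox9 High library 2.

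Other whole-intron hairpins listed in the table did not have their highest mean in Sox9 High or Sox9 Low. Of the 16, 4 have an entry in the table: Mir1224, Mir877 in Abcf1, Mir1981 in Mtarc2 and Mir1982 in Oaz1, the last 2 found after the values were seen. Mir877 is another 85-base hairpin, on chromosome 17 at 35960730 to 35960814 on the minus strand, and is printed for the comparison of its arms.
miR-877-5p: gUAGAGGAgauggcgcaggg
miR-877-3p: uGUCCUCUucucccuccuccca

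miR-877-5p averaged 39.9 ± 18.5 in Sox9 High, 32.7 ± 26.2 in Sox9 Low and 190 ± 166 in tuft libraries (SD, n = 4, 4 and 3), with 1 tuft and 1 Sox9 Low library at 0. miR-877-3p averaged 15.8 ± 8.26 in Sox9 High (SD, n = 4) and 28.0 ± 5.72 in Paneth libraries (SD, n = 6), with overlapping ranges, while all 4 Sox9 Low libraries were at 0. By limma with Benjamini-Hochberg adjustment miR-877-3p was higher in Sox9 High than in Sox9 Low (log2 difference 3.85, SE 1.03, adjusted p = 0.0125), a call lost without number 3 or with a pseudocount of 10. By the same limma fit miR-877-3p was also higher in Sox9 High than the mean of the other 7 populations (log2 difference 2.21, SE 0.79, adjusted p = 0.0261). The Sox9 values of this arm sit near the listing limit, which 9 reads put at 5.46 to 18.9 in Sox9 Low libraries. In goblet libraries, all 4 at 0, 9 reads would be worth 27.9 to 57.1, and in tuft libraries 38.3 to 62.0. Both limits lie above the highest Sox9 High value, 22.3, so a 0 there cannot show a lower level. The tuft mean itself was 50.5 ± 87.5 (SD, n = 3), with 2 libraries at 0. miR-1981-5p was listed in every population, with its lowest means in Sox9 High, 462 ± 163, and Paneth libraries, 478 ± 103 (SD, n = 4 and 6). Its highest means were 1040 ± 313 in goblet and 962 ± 498 in Sox9 Negative libraries (SD, n = 4 each). miR-1982-5p was listed in 1 CD24Low library alone, as was miR-702, whose hairpin is not a whole intron in this annotation.

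Likeness of other entries to miR-1224-5p was the Pearson correlation of log2(value + 1) over 31 libraries, among the other entries for unshifted arms that reached a value of 10 in at least 2 libraries. Libraries of 1 population share their sort, so r describes the populations more than single libraries. Highest was miR-7a-2-3p with r = 0.93, then miR-7b-5p with 0.87, miR-184-3p with 0.84, miR-129-2-5p with 0.81 and miR-92b-5p with 0.79. Without number 3 the first 4 kept these ranks, with r of 0.93, 0.86, 0.79 and 0.77, and miR-92b-5p ranked seventh, with 0.73. Their sequences are given, with miR-7a-5p, which is cut from the same hairpin as miR-7a-2-3p and shares its seed with miR-7b-5p.
miR-7a-2-3p: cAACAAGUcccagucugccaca
miR-7a-5p: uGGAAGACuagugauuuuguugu
miR-7b-5p: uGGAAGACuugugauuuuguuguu
miR-184-3p: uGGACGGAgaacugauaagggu
miR-129-5p: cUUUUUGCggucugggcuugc
miR-92b-5p: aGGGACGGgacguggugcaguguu

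No seed of miR-1224 recurs in these, as each of its seeds is single among mature mouse microRNAs. miR-7a-2-3p held 1394, 897, 1131 and 1249 in Sox9 High libraries and 729, 561, 989 and 1024 in Sox9 Low libraries, with no excess in number 3. It averaged 402 ± 263 in CD24Low (SD, n = 4) and was listed at 0 in Sox9 Negative and tuft libraries. miR-184-3p held 738, 906, 1029 and 971 in Sox9 High and 730.1, 899, 4582 and 1718 in Sox9 Low libraries, so that number 3 stood out in Sox9 Low as for miR-1224-5p. Unlike miR-1224-5p, it was listed at 0 in both Lgr5 High libraries. miR-92b-5p held 11.3, 22.3, 90.1 and 22.5 in Sox9 High and 24.3, 31.6, 191 and 15.6 in Sox9 Low libraries, with number 3 highest in both.

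A list of microRNAs known from endocrine and neural cells had 29 entries, of which 22 reached a value of 10 in at least 2 libraries. The list was chosen with earlier results of these data known, so its counts and p-values are no independent test. Values were compared by limma on log2(value + 1) over all 1057 entries kept, and a call required an adjusted p under 0.05 and an absolute log2 difference of at least 1. In Sox9 High against the mean of the other 7 populations, 15 of 22 rose and 0 fell, where 26.4% of all entries rose and 8.42% fell. Some entries are loci of the same mature microRNA with near equal values, as for miR-7a-5p, miR-129-5p and miR-9-5p. The counts are therefore of entries and not of separate microRNAs. The list's median log2 difference was 3.45, against 0.57 over all entries. miR-184-3p, a brain and islet microRNA, rose by 7.12 (SE 0.70, adjusted p = 8.35e-09). miR-7b-5p, of the miR-7 family that is abundant in endocrine cells, rose by 6.58 (SE 0.43, adjusted p = 2.86e-12), and miR-375-3p, a microRNA of islets, by 2.06 (SE 0.28, adjusted p = 1.51e-06). miR-132-3p, known for its induction by neuronal activity, rose by 5.80 (SE 1.03, adjusted p = 6.54e-05). For miR-1224-5p the same difference was 5.36 (SE 0.53) and for miR-1224-3p 3.80 (SE 0.53), given without a test.

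Entries listed at 0 enter this contrast as 0, and their limits differ with depth. With every value under 100 raised to 100, 8 of 14 list entries rose and 0 fell, where 8.46% of 473 entries rose and 11.4% fell. The 8 were both miR-7a-5p loci, miR-7a-2-3p, miR-7b-5p, miR-127-3p, miR-132-3p, miR-184-3p and miR-375-3p, and miR-1224-5p stood at 2.33. With this floor the difference was 2.53 for miR-184-3p, 5.49 for miR-7b-5p, 2.13 for miR-132-3p and 2.06 for miR-375-3p. The other 6 were miR-7a-1-3p, miR-128-1-3p, miR-128-2-3p, miR-153-3p, miR-129-1-5p and miR-129-2-5p. Of these, miR-153-3p, with 4.13 as listed and 0.65 with the floor, miR-129-1-5p, with 5.21 and 0.23, and miR-129-2-5p, with 4.97 and 0.22, lost their calls. Without the floor, the 7 entries that did not pass were miR-7a-1-3p, 3 miR-128 entries and 3 copies of miR-9-5p. The miR-9-5p copies were 0.51 lower in Sox9 High (SE 0.20, adjusted p = 0.0379), under the size needed for a call.

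Against Sox9 Low alone few entries of the list passed. In Sox9 High 1 of 22 entries rose and 0 fell, where 9.56% of all entries rose and 2.74% fell. The entry was miR-7b-3p, 3.14 higher (SE 0.86, adjusted p = 0.0154), with 30.8, 11.6, 0 and 14.2 in Sox9 High libraries and 0 in all Sox9 Low libraries. That call was lost without Sox9 High library 1, without library 4 and without the filter on low values. With values under 100 raised to 100, 0 of 14 list entries rose or fell, where 6.34% of entries rose and 4.23% fell. miR-375-3p held 295057, 213245, 382284 and 322384 in Sox9 High, against 166331, 107132, 528850 and 232039 in Sox9 Low libraries (log2 difference 0.46, SE 0.36, adjusted p = 0.55). Number 3 was again the highest library of both fractions.

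**Figure D3:**
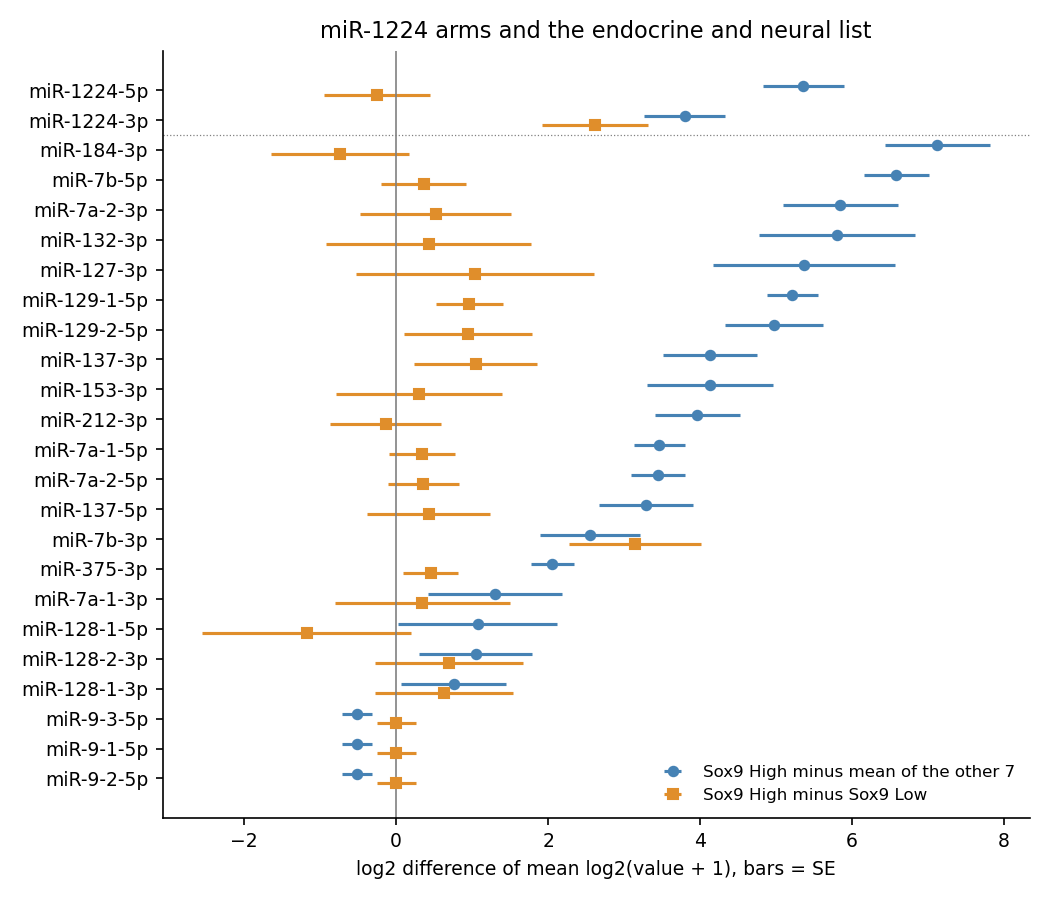
Differences in mean log2(value + 1) with SE for both arms of miR-1224 and 22 entries of the endocrine and neural list. Blue circles compare Sox9 High with the mean of the other 7 populations and orange squares compare Sox9 High with Sox9 Low. miR-1224-5p lies at 5.36 in the first and −0.25 in the second.

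Vwa5b2 was found in EEC and almost nowhere else among the named cells. Over both libraries EEC held 196 of 211 Vwa5b2 UMIs, 64 of them in library 1, where a UMI marks 1 captured mRNA molecule. In CPM, the UMIs of a gene per 1000000 UMIs of the same cells, the level was 118 (95% exact Poisson interval 90.6 to 150.2) in library 1 and 163 (136 to 193) in library 2. All other named cells together held 7 and 8 UMIs, or 0.299 (0.120 to 0.616) and 0.170 (0.0732 to 0.334) CPM. EEC made up 3.06% of the cells in each library and 2.27% and 1.69% of the UMIs, and they held 90.1% and 94.3% of the Vwa5b2 UMIs. Intervals cover counting error only. The cell types were named by the authors from these cells, so no test is given.

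No other type overlapped EEC. Secretory progenitors held 1 and 4 UMIs in libraries 1 and 2, or 0.605 and 0.608 CPM. Enterocytes, the absorptive cells, held 2 in each, and progenitors 3 and 1. Stem cells, named ISC, held 0 and 1, and Paneth cells 1 and 0. Goblet cells held 0 UMIs in both libraries, where 3 UMIs would be worth 1.63 and 0.451 CPM. Tuft cells held 0 as well, where 3 UMIs would be worth 7.05 and 5.16 CPM.

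**Figure D4:**
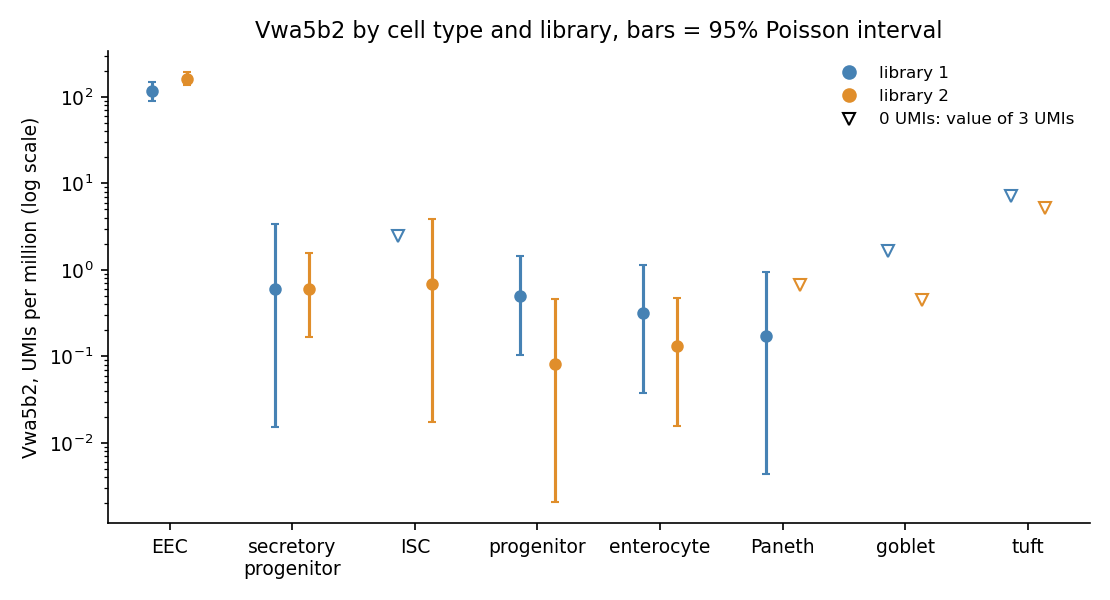
Vwa5b2 level in CPM on a log axis by cell type, with 1 point per library and the 95% Poisson interval. Open triangles mark types with 0 UMIs at the value of 3 UMIs. EEC lie at 118 and 163, no type with a UMI exceeds 0.689 elsewhere, and the tuft limits lie at 7.05 and 5.16.

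At least 1 Vwa5b2 UMI was present in 25 of 35 EEC (71.4%, exact binomial 95% interval 53.7 to 85.4%) in library 1 and in 40 of 45 (88.9%, 75.9 to 96.3%) in library 2. Among all other named cells the shares were 0.541% and 0.491%, and among enterocytes 0.493% and 0.410%. Median depth was 11858 and 12685 UMIs in EEC, against 15164 and 24698 in enterocytes, so EEC were the shallower. With every cell thinned to 11400 UMIs, the share was 10 of 18 EEC (55.6%) and 24 of 30 (80.0%), against 0.552% and 0.215% of enterocytes. The thinning left out 32 of 80 EEC as too shallow. Single EEC held a median of 2 and 3 UMIs and at most 8 and 7.

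The label EEC was set beside 10 enteroendocrine markers, all 10 of which were detected in EEC of both libraries. The authors named the types from these same cells, so the markers describe the label and are no independent check of it. Their summed level was 51343 and 57552 CPM in EEC, against 28.2 to 222 in the other types of library 1 and 6.88 to 67.2 in those of library 2. Tuft markers summed to 1.84 and 9.85 in EEC, and markers of stroma and muscle were at 0. Of 6 neuron and glia markers 4 were detected in EEC, at 44.1 and 56.7 CPM, and one of them, Tubb3, is among the genes that follow Vwa5b2 across cell types. Goblet markers summed to 7365 and 2606 and Paneth markers to 3085 and 1296 CPM in EEC. The part of these in the Vwa5b2 level was not tested, and goblet cells themselves held 0 Vwa5b2 UMIs.

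A few cells with another name held Vwa5b2 too, 6 in library 1 and 7 in library 2. Of these 13 cells, 4 had at least 5 of the 10 enteroendocrine markers: 3 named enterocyte and 1 named secretory progenitor. Those 4 were the only cells outside EEC with that many markers, 2 of 2 in library 1 and 2 of 2 in library 2, while 4 of 1107 and 5 of 1423 of the cells with fewer markers held a Vwa5b2 UMI. One of the enterocytes in library 1 held 886 UMIs of somatostatin (Sst). The level of 5 markers was chosen after the values were seen.

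Within EEC, Vwa5b2 was counted in cells that hold each hormone. Single hormone UMIs also occurred outside EEC: Gip in 36.3% and 11.3% of the other named cells of libraries 1 and 2, Ghrl in 11.4% and 2.32% and Cck in 10.6% and 3.44%. A cell was therefore counted for a hormone at 10 UMIs or more, a level chosen after the values were seen, which 0 other named cells reached for Gip, Cck or glucagon (Gcg) and 1 reached for Ghrl. In library 1, EEC at this level held Vwa5b2 in 9 of 11 cells for the incretin gene Gip, 11 of 14 for Cck, 7 of 9 for Ghrl and 4 of 5 for Gcg. In library 2 the counts were 12 of 14 for Gip, 21 of 22 for Cck, 7 of 7 for Ghrl and 12 of 12 for Gcg. Cells are not replicates, so these counts are a description.

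Of 8 granule genes, such as Chga and Chgb, 7 were more frequent in EEC with Vwa5b2 than without in library 1 and 8 in library 2. Among transcription factors the count was 7 of 11 in library 1 and 9 of 11 in library 2. Over all genes found in at least 5 EEC, 56.2% in library 1 and 82.3% in library 2 were more frequent in cells with Vwa5b2, so the transcription factors lie near that background in both libraries and the granule genes of library 2 are little above it. In library 1 the cells with and without Vwa5b2 had like depth, with medians of 11858 and 11980.5 UMIs. In library 2 they differed, with 13116 in 40 cells with Vwa5b2 and 8951 in 5 without. Nkx2-2, a transcription factor of endocrine cells, was detected in 25 of 25 EEC with Vwa5b2 and 7 of 10 without in library 1, and in 32 of 40 and 3 of 5 in library 2. Other transcription factors went the other way: Insm1, Neurog3, Pax4 and Rfx6 in library 1, and Neurog3 and Rfx6 in library 2.

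Neurog3, which is switched on briefly as endocrine precursors form, had the lowest share with Vwa5b2 among transcription factors found in at least 5 EEC, in both libraries. EEC with Neurog3 held Vwa5b2 in 8 of 14 cells in library 1 and in 5 of 6 in library 2. EEC without it held Vwa5b2 in 17 of 21 and 35 of 39. Summed over cells, Vwa5b2 stood at 74.7 CPM in EEC with Neurog3, against 152 in EEC without it, in library 1, and at 130 against 170.3 in library 2. A lower sum in both libraries was not particular to Neurog3. With and without Rfx6 it was 93.0 against 144 and 155 against 207, and for the granule gene Chgb 106 against 166 and 162 against 170.5. For Isl1 and Nkx2-2 the sum was higher in cells with the gene in both libraries. The direction for Neurog3 was the same in both libraries, but in library 2 the lower sum rests on 1 cell. There, 1 of the 6 EEC with Neurog3 held 3 Vwa5b2 UMIs among 82091 UMIs. The others held 4 among 10694, 0 among 11465, 6 among 10875, 4 among 25667 and 3 among 13563. Without the cell of 82091 UMIs, the sum in library 2 would lie above that of EEC without Neurog3. With 2 libraries the direction has no test.

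**Figure D5:**
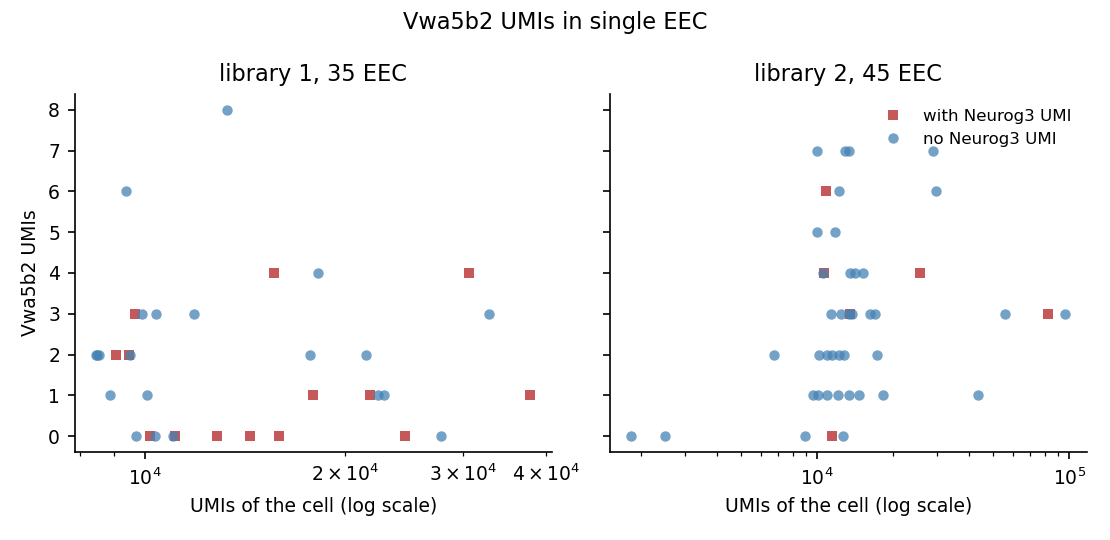
Vwa5b2 UMIs of each EEC against the UMIs of that cell on a log axis, for library 1 (35 cells) and library 2 (45 cells). Red squares are cells with a Neurog3 UMI and blue circles cells without. Most cells hold 1 to 4 Vwa5b2 UMIs, and 2 of the cells without Vwa5b2 in library 2 are the shallowest.

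Relatives and neighbours of Vwa5b2 differed in where they were found. Vwa5a stood at 5.51 and 14.8 CPM in EEC, against 9.78 and 14.9 in all other named cells, with overlapping intervals in both libraries. Vwa5b1 had 0 UMIs in the named cells. Alg3, a glycosylation enzyme gene that lies 79 bases beyond the end of Vwa5b2 on the opposite strand, stood at 22.1 and 16.01 in EEC, against 11.2 and 15.1 elsewhere. On the other side, Abcf3 stood at 11.0 and 27.1 in EEC, against 13.5 and 19.3 elsewhere, and Ap2m1 at 187 and 154 in EEC, against 148 and 151 elsewhere. Dvl3 stood at 12.9 and 6.16 in EEC, against 3.72 and 4.47 elsewhere, with overlapping intervals in library 2 only. Ece2, whose joint locus with Eef1akmt4 lies beyond Alg3, stood at 33.1 and 16.01 in EEC, against 14.9 and 11.1 elsewhere, with overlapping intervals in library 2 only. Ece2 was not particular to EEC, as it stood at 33.2 and 19.4 in goblet cells and at 27.3 and 22.7 in stem cells. Camk2n2, 13836 bases downstream and picked after its values were seen, stood at 27.6 and 49.3 in EEC, against 0.897 and 1.08 elsewhere. A noncoding gene on the opposite strand, Gm35685, overlaps the first exons of Vwa5b2 in RefSeq and has no row in the matrices.

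Among 12387 genes, those whose levels across 16 sums of cell type and library were most like Vwa5b2 were Celf3, Dbpht2, 1700086L19Rik, Syt13 and Pax4, each with a Pearson r of 0.99 on log2 of the level plus 1. In EEC, Celf3 stood at 91.9 and 109.6 CPM and Syt13 at 58.8 and 62.8 CPM. Celf3 is a splicing regulator of neurons, Syt13 a synaptotagmin and Pax4 an endocrine transcription factor. Since 2 of the 16 sums are EEC and the rest lie near 0, a gene found mainly in EEC scores high here.

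The genes that process microRNAs were detected both in EEC and in the other cells. Drosha stood at 16.5 and 23.4 CPM in EEC, against 8.59 and 12.8 in all other named cells. Dgcr8 stood at 16.5 and 20.9 in EEC, against 9.31 and 11.0 elsewhere. Dbr1, needed for mirtrons, stood at 12.9 and 18.5 in EEC, against 7.48 and 12.9 elsewhere, with overlapping intervals. The interval in EEC lay above that of the other cells for 0 of 6 such genes in library 1 and for 3 of 6 in library 2, where it did so for 24.8% and 28.3% of all genes with at least 30 UMIs.

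The sort genes were not highest in EEC in the same matrices. Sox9 stood at 53.3 and 22.2 CPM in EEC, against 34.3 and 40.8 in all other named cells, and was highest in tuft cells at 289 and 232. Cd24a stood at 1022 and 572 in EEC, against 282 and 145 elsewhere, with 5577 and 1816 in tuft cells. Tuft cells thus had the most mRNA of both genes and 0 Vwa5b2 UMIs, and sorted tuft libraries listed miR-1224-5p at 0. Levels in the matrices are mRNA at 12 months and the sort used a signal and an age not stated, so the 2 data sets were not joined in a test.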

How the data were processed

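Small RNA libraries were made with the TriLink CleanTag kit and single-cell libraries with 10x Genomics Chromium, per the labels' protocols. The deposited small RNA table holds a signal per entry and library that the authors normalised by 1 factor per library: every value is a whole multiple of the library's step within 0.001 reads, and the smallest listed is 10 to 12 reads. The build is mm9, per the submitters' processing notes, and the aligner is not given in the sources used here. Columns exist for 31 of 34 libraries; 3 Progenitor libraries match no column and are not analysed here, and 3 columns match no label and were not used. The authors deposited raw UMI counts per gene and barcode with cell names for 2614 barcodes. The 2 libraries share 0 barcodes, and no doublets were removed here.

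The members and lists were chosen with earlier results of these data known. limma 3.58.1 in R 4.3.3 was fitted to log2(value + 1) of the 1057 entries with a value of at least 10 in at least 2 libraries, with 1 mean per population and a trend in the prior variance. P-values are two-sided and adjusted by Benjamini-Hochberg, and a call needed an adjusted p under 0.05 and a log2 difference of at least 1. No label ties a library to its own animal. The p-values therefore reflect only how far libraries spread, which may be technical. In simulated data with the same listing limits, the fit of values as listed also called unchanged entries, more of them against the other 7 populations than against Sox9 Low, and the fit with a floor of 100 did not. Unchanged entries there had the same mean in all libraries and the same dispersion. The simulation therefore cannot show how many false calls either fit makes in the real libraries. UMIs were summed per cell type and library with exact 95% Poisson and binomial intervals in SciPy, and a count of 0 was given the limit of 3 UMIs. Thinning drew 11400 UMIs per cell, the 10th percentile of named cells rounded down to 100. Named entries and genes follow families, neighbours and lists, plus the 5 most correlated, and Mir1981, Mir1982 and Camk2n2 were added after their values were seen; Ece2 stands in for its joint locus with Eef1akmt4, which the matrices do not name. Sequences and positions are from RefSeq, GRCm38.p6. The planned fit had no block, and the label number as a replicate block was an alternative. Sox9 High and Sox9 Low libraries with the same number correlated at 0.132, 0.146, 0.198 and 0.0998 in their deviations from group means. The meaning of the code that labels of 1 number share is not given.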

Additional observations from a re-analysis of the deposited data

Results flagged for a closer look

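miR-1224-5p in Sox9 Low library 3 was 5410.2, while the other Sox9 Low libraries held 502 to 613, and miR-1224-3p in the same library was 44.02 with the others at 0. The 3p arm with an offset of +1 reached 5.58 in Sox9 High library 2 alone. Among entries named beside it, single libraries stood apart as well. Number 3 was the high one for miR-92b-5p, at 90.1 in Sox9 High and 190.8 in Sox9 Low. Sox9 Low library 4 was high for both miR-7a-5p loci, at 123918 and 133527. Paneth library 1 was high for miR-7a-2-3p (13.5), miR-7b-5p (228) and miR-127-3p (28.5). Goblet library 4 alone listed miR-184-3p (76.2), miR-127-3p (76.2) and miR-153-3p (121), goblet library 1 alone miR-129-2-5p (61.7) and goblet library 3 alone miR-1981-3p (74.4). miR-375-3p was 5323 in Sox9 Negative library 2, against 2964 to 3190.1 in the others. In CD24Low cells miR-877-3p was 20.9 in library 1, and miR-1982-5p (3.602) and miR-702 (5.04) were listed in library 3 alone. miR-877-3p was 12.2 in Sox9 Negative library 1 with the others at 0. These are 20 of 99 groups checked (20.2%). In 12 of them the other libraries were listed at 0, where any listed value is flagged whatever its size. The rule's nominal rate of about 1 in 20 assumes normal values and does not apply here, so the share is no measure of an excess.

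Outside the named cells, barcodes without a cell type in library 2 held 12 Vwa5b2 UMIs in 11 of 6241 barcodes, above the limit of a count of 0. The level there was 0.535 CPM, and 5 of the 11 had at least 3 enteroendocrine markers. Library 1 had 0 in 65 such barcodes.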

How the results depend on the processing

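The log2 difference of miR-1224-5p in Sox9 High against the mean of the other 7 populations was 3.89 with a pseudocount of 10 and 2.33 with values under 100 raised to 100, since libraries at 0 set its size. Leaving out 1 library gave 4.89 to 5.71, and against Sox9 Low −0.71 to 0.58. With the floor of 100 the calls were 40 higher and 54 lower, 8 of them higher in the list, and against Sox9 Low 30 higher with 0 in the list, over fewer entries tested. Without the filter on low values, 14 were lower and 0 of the list higher against Sox9 Low, and the cause was not tested. Leaving out 1 library gave 228 to 300 higher, 65 to 97 lower and 15 or 16 of the list higher against the other 7, and 63 to 102 higher, 14 to 27 lower and 0 or 1 of the list against Sox9 Low. Without Sox9 High library 4 the 101 higher calls against Sox9 Low became 63, and the 29 lower calls became 14 without Sox9 High library 1 or 4 and 17 without Sox9 Low library 2. Rescaling to library totals moved the median of all entries to 0.83, against 0.57, with 15 list entries higher. Without number 3, 15 list entries were higher. Vwa5b2 in EEC averaged 140.1 ± 31.8 CPM (SD, n = 2), 177.8 as a mean of the cells' own levels, and 117.6 or 162.6 in 1 library.

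With the label number as a replicate block in the Sox9 libraries, Sox9 High against Sox9 Low gave 87 higher and 39 lower, against 95 and 38 without the block, and −0.25 for miR-1224-5p. By correlation, Sox9 High libraries 2, 3 and 4 lay closest to the Sox9 Low library of their own number, at 0.146, 0.198 and 0.0998. Sox9 High library 1 lay closest to Sox9 Low library 4, at 0.172. This is a hint of pairing, and labels of the same number also share a code, whose meaning is not given. The p-values of the fit without a block take no account of such pairing. A block over all libraries was added after the data were seen and gave 275 higher and 68 lower against the other 7. A count test on recovered reads was not run (edgeR had been planned), because values under 10 reads are not listed. Depth limits the tuft and goblet libraries most.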
